A study of Mus musculus with 7 samples.

Results

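Primary mouse myogenic progenitor cells kept in growth medium for 5 days were compared with the same kind of cells on day 0 of the differentiation course, that is, before they were moved to differentiation medium. The comparison took in every miRNA assay of the TaqMan panel, 375 of the 381 assays on it, of which 335 were designed for mouse and 40 for rat miRNAs. It set the 4 rows of raw threshold cycles (Ct) deposited for growth day 5 against the 4 rows for differentiation day 0, which stand in separate files. A Ct is the PCR cycle at which the signal crosses a threshold, so that a lower Ct means more template and 1 cycle is about a doubling.

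The cells came from hind limb muscle of C57BL/6J mice and were at passage 3. For growth day 5 they were plated in flasks coated with type I collagen, in Ham's F-10 with 20% fetal bovine serum and 10 ng/ml FGF-2. For differentiation day 0 they were seeded in 60 mm dishes coated with entactin, collagen IV and laminin and left to adhere for 24 h in that same growth medium. The later days of that course, used here only for context, were spent in DMEM with 2% horse serum. Both columns thus hold cells in growth medium, and the days since plating, the coating, the vessel, the seeding density and the deposited file all changed together between them and cannot be told apart. Nothing in the labels tells if the 4 rows of a column are separate cultures or repeat wells of a single RNA. The p-values below therefore measure only the spread from row to row, and that spread may be technical. In RNA from a whole culture, fewer cells that make a miRNA and less of it per cell cannot be told apart either.

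Myogenic progenitor cells descend from satellite cells, divide in serum with FGF-2, and leave the cell cycle to fuse into multinucleated myotubes when serum is withdrawn. miRNAs are short RNAs that guide silencing complexes to mRNAs, mainly by pairing through the seed, bases 2 to 8 from the 5′ end. In this lineage miR-1, miR-133 and miR-499 are made chiefly by muscle cells, the miR-17-92 cluster and the pair miR-221 and miR-222 are best known from dividing cells, and the let-7 family is known to accumulate as many cell types mature.

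The mature sequences of the miRNAs on which the results turn are shown so that families that share a seed can be compared base by base. They are RefSeq sequences (GRCm38.p6) matched by name, with assay names that carry no arm taken as the arm given here. The probe sequences of the assays were not used here. The seed is in capitals. First come 4 members of the let-7 family, which share the seed GAGGUAG although their changes differed. Of the 22 bases of let-7a, let-7f differs at 1 and miR-98 at 2.
miR-98-5p, chrX:151913229-151913250, plus strand, within the span of Huwe1: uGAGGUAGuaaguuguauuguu
let-7f-5p, chr13:48537889-48537910, minus strand, and chrX:151912353-151912374, plus strand, the latter within the span of Huwe1: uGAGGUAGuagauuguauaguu
let-7a-5p, chr13:48538239-48538260, minus strand: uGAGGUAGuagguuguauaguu
let-7d-5p, chr13:48536078-48536099, minus strand: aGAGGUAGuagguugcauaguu

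A pair from the Hox clusters and a pair of the miR-29 family follow, each with the same seed and unequal change. The miR-10 sequences differ at 1 of 23 bases.
miR-10b-5p, chr2:74726074-74726096, plus strand, within the span of Hoxd3 and Hoxd4: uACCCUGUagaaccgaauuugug
miR-10a-5p, chr11:96317186-96317208, plus strand, within the span of Hoxb3: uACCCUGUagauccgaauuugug
miR-29b-3p, chr6:31063025-31063047, minus strand, and chr1:195037091-195037113, plus strand: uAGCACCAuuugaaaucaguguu
miR-29a-3p, chr6:31062673-31062694, minus strand: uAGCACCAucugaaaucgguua

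Last come 3 of the other miRNAs with the largest rises, the cluster of miR-183, miR-96 and miR-182, whose members lie close together on chromosome 6 and have seeds that differ from each other, and miR-203, which fell against both references.
miR-499-5p, chr2:155622893-155622913, plus strand, within the span of Myh7b: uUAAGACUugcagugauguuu
miR-135a-5p, chr9:106154140-106154162, plus strand, within the span of Glyctk, and chr10:92072141-92072163, minus strand: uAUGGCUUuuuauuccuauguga
miR-708-5p, chr7:96249450-96249472, plus strand, within the span of Tenm4: aAGGAGCUuacaaucuagcuggg
miR-183-5p, chr6:30169711-30169732, minus strand: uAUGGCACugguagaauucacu
miR-96-5p, chr6:30169506-30169528, minus strand: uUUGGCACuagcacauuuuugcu
miR-182-5p, chr6:30165962-30165986, minus strand: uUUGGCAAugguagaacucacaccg
miR-203-3p, chr12:112130927-112130948, plus strand: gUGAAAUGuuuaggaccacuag

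The reference RNAs had to be described before any relative level. MammU6, the small nuclear RNA that the deposited files mark as the endogenous control, crossed the threshold at 13.81, 12.69, 13.05 and 12.36 cycles in rows 1 to 4 of differentiation day 0 and at 12.55, 13.64, 12.85 and 12.47 cycles on growth day 5. The columns overlapped, with row 1 of the first and row 2 of the second late, and the means were 0.10 cycles apart (exact permutation test, two-sided, p = 0.743). The other 4 control RNAs did move: snoRNA135 by -1.04 cycles, snoRNA202 by -0.93, U87 by -1.01 and Y1 by -0.90 from differentiation day 0 to growth day 5. For each of these the 4 rows of growth day 5 lay below all 4 of differentiation day 0, which gives the smallest p that 4 rows against 4 allow (exact permutation test, two-sided, p = 0.0286).

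The typical miRNA moved as these 4 controls did. The row median, taken in each row over the 221 miRNA assays with a Ct in all 24 rows of the 6 day columns, was 25.28 ± 0.49 cycles on differentiation day 0 and 24.15 ± 0.23 on growth day 5 (SD, n = 4). That is a shift of -1.13 cycles with no overlap between the columns. Row 1 held the latest MammU6 in each of the 4 columns of the differentiation course, and row 2 in both columns of the growth course. Against MammU6 the 4 other controls therefore rose by 0.80 to 0.94 on the log2 scale, and none of the 4 passed (limma, adjusted p = 0.0892 to 0.108), although 2 had an unadjusted p under 0.05. Which of these RNAs stayed constant per cell was not tested, so each change below is given both against MammU6 and against the row median of the same row. The plot of the reference measures by row shows the late MammU6 rows beside the shift of the other measures.

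**Figure D1:**
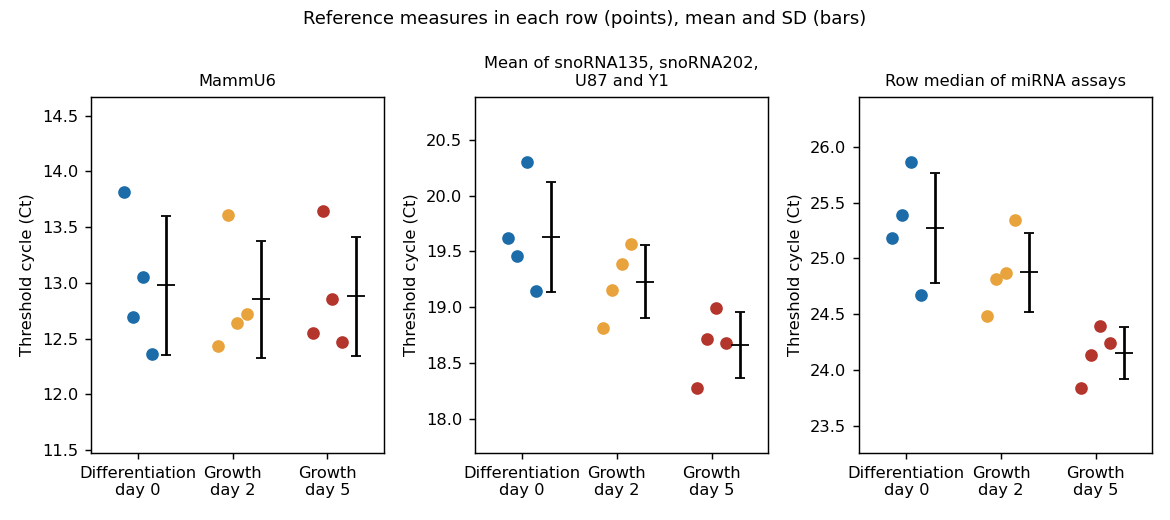
Threshold cycles of MammU6, of the mean of 4 other control RNAs and of the row median of miRNA assays in each of 4 rows (points) of differentiation day 0, growth day 2 and growth day 5, with mean and SD (bars), on axes that span the same number of cycles. MammU6 has the same mean in both outer columns within 0.10 cycles and a single late row in each column, while the row median is 1.13 cycles earlier on growth day 5 than on differentiation day 0.

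Of the 375 miRNA assays, 241 had a Ct in at least 3 of 4 wells of both columns and a mean Ct under 35 in at least 1 of them, and were tested. Another 89 had no Ct in either column, 40 had a Ct in too few wells, and 5 had enough wells but a mean Ct of 35 or later in both columns. Against MammU6, 89 assays (36.9%) were higher on growth day 5 and 3 (1.24%) were lower at an adjusted p under 0.05 (limma, Benjamini-Hochberg over the 241 assays). Against the row median, 23 (9.54%) were higher and 36 (14.9%) lower. All 4 rows of growth day 5 lay above all 4 of differentiation day 0 for 62 assays (25.7%) and below them for 3 (1.24%) against MammU6, and for 26 (10.8%) and 36 (14.9%) against the row median. The median change of all tested assays was 0.94 against MammU6 and -0.09 against the row median, on the log2 scale.

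Of the 125 assays that passed against either reference, 102 had the same sign against both, but only 26 passed against both. All 23 assays that were higher against the row median were also higher against MammU6, and 21 of them were also among the 26 (10.8% of 241) that were higher against the mean of the 4 other controls. Only miR-182, miR-187 and miR-203 were lower against both, and these 3 were also among the 18 (7.47%) lower against that mean. A further 66 assays passed as higher against MammU6 alone, 8 of them with a change below 0 against the row median, and 33 passed as lower against the row median alone, 15 of them with a change above 0 against MammU6. The count against MammU6 fell from 92 (38.2%) to 26 without row 2 of growth day 5, to 32 without row 2 and to 43 without row 3 of differentiation day 0, and the count against the row median fell from 59 (24.5%) to 36 without row 2 of growth day 5.

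**Figure D2:**
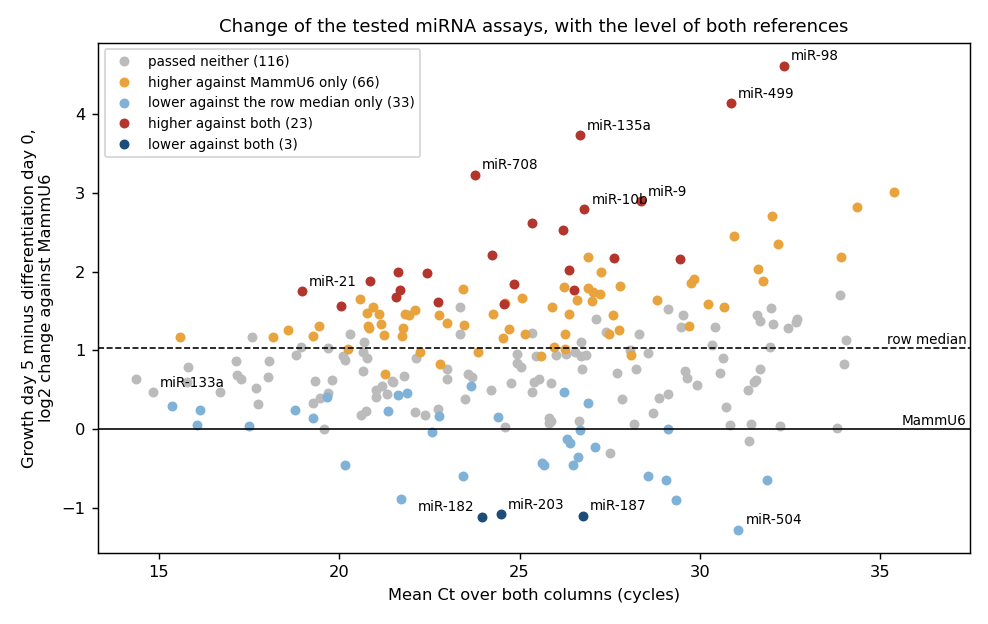
Each point is 1 of 241 tested miRNA assays, with its mean Ct over both columns (x axis, cycles) and its log2 change from differentiation day 0 to growth day 5 against MammU6 (y axis). The solid line marks no change against MammU6 and the dashed line no change against the row median, and the 23 assays that passed as higher against both references (red) lie above both lines while 3 (dark blue) lie below both.

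The largest rise was that of miR-98, a let-7 family member. Its Ct came 20.52, 21.24, 23.24 and 21.82 cycles after MammU6 in rows 1 to 4 of differentiation day 0 and 15.43, 16.37, 18.50 and 18.07 cycles after it on growth day 5. Every row of growth day 5 was thus earlier than every row of differentiation day 0, while the rows within each column spread over more than 2 cycles. miR-98 rose by 4.61 ± 0.85 (SE) on the log2 scale against MammU6, 24.5-fold, and by 3.59 ± 0.66 against the row median (limma, adjusted p = 0.000729 and 0.000849). It was a late signal, at a mean raw Ct of 34.68 on differentiation day 0 and 29.97 on growth day 5.

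let-7f and let-7a, which are abundant in many tissues, rose as well, by less. let-7f lay 2.54, 3.28, 2.14 and 0.98 cycles after the row median on differentiation day 0 and 0.49, 1.02, 0.94 and 0.49 cycles after it on growth day 5, so that row 4 of the first column fell within the range of the second and the other 3 rows lay above it. It rose by 2.53 ± 0.63 against MammU6 and by 1.50 ± 0.50 against the row median (limma, adjusted p = 0.00702 and 0.0341). let-7a lay at 0.32, 0.21, 0.41 and -0.44 cycles from the row median on differentiation day 0 and at -1.25, -1.07, -0.51 and -1.42 on growth day 5. The 2 columns of let-7a did not overlap, and it rose by 2.21 ± 0.65 against MammU6 and 1.19 ± 0.40 against the row median (limma, adjusted p = 0.0148 and 0.0372). Against the row median neither let-7a nor let-7f passed in 6 of the 8 fits that left out 1 row, with changes of 1.07 to 1.38 and of 1.15 to 1.92, the 2 exceptions being row 3 of growth day 5 and row 4 of differentiation day 0. Against MammU6 the let-7a call was lost without row 2 of growth day 5 and without rows 2 or 3 of differentiation day 0, with changes of 1.95, 2.05 and 1.95.

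The changes within the family spread widely. Of its 9 assays, all tested, 5 were higher against MammU6 (36.9% of all tested assays) and 3 against the row median (9.54% of all). None was lower against either, and the median change was 1.45 and 0.42. The other 6 lay between -0.29 and 0.53 against the row median, where let-7d was the lowest. let-7d is encoded 1789 bases from let-7f on chromosome 13, and a ratio of 2 assays in the same row needs no reference RNA. The log2 ratio of let-7f to let-7d ran from -7.39 to -5.21 on differentiation day 0 and from -4.92 to -4.21 on growth day 5, a difference of 1.79 with no overlap. The difference was 1.48 for let-7a to let-7d, also with no overlap, and 2.09 with overlapping rows for miR-98 to let-7f, which differ at 3 bases and share the Huwe1 span. These ratios, like the others below, were picked after the values were seen. Of the 16 computed, 9 had no overlap between the columns, which gives the smallest p that 4 rows against 4 allow (exact permutation test, two-sided, p = 0.0286, adjusted p = 0.0508 over the 16), so none passed after adjustment and their values are a description. How far an assay also reads other members of its family was not tested.

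Among the muscle-restricted miRNAs, miR-499 stood apart. It is encoded in Myh7b, a slow-type myosin gene, and acts in the slow muscle fibre programme. Its Ct came 18.15, 21.95, 20.53 and 19.35 cycles after MammU6 on differentiation day 0 and 15.43, 14.67, 16.58 and 16.74 cycles after it on growth day 5. All 4 rows of growth day 5 were earlier, by at least 1 cycle. The rise was 4.14 ± 0.75 against MammU6, 17.6-fold, and 3.12 ± 0.55 against the row median, 8.66-fold (limma, adjusted p = 0.000676 and 0.000546).

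The better known muscle miRNAs changed by less. miR-133a, which promotes myoblast division in mouse cells, lay at -9.61, -10.03, -10.64 and -10.39 cycles from the row median on differentiation day 0 and at -8.94, -9.56, -9.61 and -10.33 on growth day 5. These rows overlapped, and its change was 0.47 against MammU6 and -0.56 against the row median (limma, adjusted p = 0.235 and 0.190). miR-133b changed by 0.87 and -0.16 and passed against neither, and its sign also turned against snoRNA135 and U87. miR-1, which favours differentiation and is transcribed with miR-133a, rose by 1.46 ± 0.44 against MammU6 and changed by 0.44 against the row median, which did not pass (limma, adjusted p = 0.0161 and 0.397). The rise against MammU6 did not pass without row 2 of growth day 5 or without row 2 of differentiation day 0, with changes of 1.13 to 1.65 over the 8 fits. The rat assay for miR-1 moved less. Its mean Ct came 6.945 cycles after MammU6 on differentiation day 0 and 5.76 on growth day 5, and lay at -5.35 and -5.51 cycles from the row median.

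The ratio of miR-1, in its mouse assay, to miR-133a, free of any reference, was -7.01 to -6.66 on the log2 scale on differentiation day 0 and -5.99 to -5.49 on growth day 5, a difference of 1.00 with no overlap. miR-208b, encoded in the slow myosin gene Myh7, rose by 1.59 against MammU6 and changed by 0.57 against the row median. miR-486, which is also abundant in blood, rose by 2.03 and changed by 1.00 in the same terms, and neither passed against the row median (limma, adjusted p = 0.487 and 0.102). Against MammU6 both calls were lost without row 2 of growth day 5, and without row 2 (miR-208b) or row 3 (miR-486) of differentiation day 0, with lowest changes of 1.30 and 1.53. Of the 6 tested members of the list, 4 were thus higher against MammU6 (36.9% of all tested assays) and 1 against the row median (9.54% of all, so that 1 of 6 is near the background). None was lower, and the list median was 1.53 and 0.50. The miR-208 assay had no Ct in either column.

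miR-135a had the lowest adjusted p of the 241 assays against both references. It is known in mouse and human myoblasts as a miRNA that acts on Mef2c and is bound by the muscle RNA linc-MD1. It lay 3.50, 3.73, 3.40 and 2.60 cycles after the row median on differentiation day 0 and 1.17, 0.15, 0.37 and 0.70 cycles after it on growth day 5. The columns were more than 1 cycle apart at their nearest rows. miR-135a rose by 3.74 ± 0.48 against MammU6, 13.3-fold, and by 2.71 ± 0.24 against the row median, 6.54-fold (limma, adjusted p = 1.65e-05 and 7.64e-08).

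miR-708, reported to hold mouse satellite cells in quiescence and encoded within Tenm4, was a second rise of this size. It lay at 1.03, 0.01, -0.75 and 0.29 cycles from the row median on differentiation day 0 and at -0.35, -3.02, -2.42 and -2.46 on growth day 5. Row 1 of growth day 5 fell within the range of differentiation day 0 and the other 3 rows lay far below it. The rise was 3.23 ± 0.48 against MammU6 and 2.21 ± 0.43 against the row median (limma, adjusted p = 6.11e-05 and 0.00114), and it passed in each fit that left out 1 row. Of the 4 tested miRNAs tied to satellite cell quiescence or Myf5 control, 3 were higher against MammU6 (36.9% of all tested assays) and 1, miR-708, against the row median (9.54% of all).

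miR-9, best known from neural progenitors and neurons, lay 4.56, 4.40, 4.99 and 4.40 cycles after the row median on differentiation day 0 and 1.29, 3.49, 2.33 and 3.76 cycles after it on growth day 5. The columns did not overlap, and the spread on growth day 5 was the wider. It rose by 2.90 ± 0.54 against MammU6 and 1.87 ± 0.42 against the row median (limma, adjusted p = 0.000729 and 0.00318).

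miR-10b, encoded in the HoxD cluster, lay 3.35, 2.02, 3.91 and 2.60 cycles after the row median on differentiation day 0 and 1.15, 0.69, 1.53 and 1.43 cycles after it on growth day 5, with no overlap. It rose by 2.80 ± 0.56 against MammU6 and 1.77 ± 0.36 against the row median (limma, adjusted p = 0.00137 and 0.00152). miR-10a, from the HoxB cluster and chosen after its value was seen because it differs from miR-10b at 1 base, changed by 1.23 and 0.21 and passed against neither. The log2 ratio of miR-10b to miR-10a ran from -1.15 to 0.26 on differentiation day 0 and from 0.69 to 2.33 on growth day 5, a difference of 1.56. In the opposite direction, miR-615-5p and miR-615-3p, encoded within the HoxC cluster, were lower against the row median by -1.68 ± 0.48 and -1.39 ± 0.35 (limma, adjusted p = 0.0151 and 0.00685), with -0.65 and -0.36 against MammU6, which did not pass. Without row 2 of growth day 5 the call of miR-615-5p was lost, and its change over the 8 fits was -2.08 to -1.14. The Hox list thus held 1 higher and 2 lower of 6 against the row median (9.54% and 14.9% of all).

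miR-29b, which silences collagen mRNAs and is reported to favour myoblast differentiation in mouse cells, lay at 1.36, 1.43, 1.70 and 1.20 cycles from the row median on differentiation day 0 and at -0.95, 0.00, -0.27 and 0.56 on growth day 5. The columns did not overlap, and the rise was 2.61 ± 0.53 against MammU6 and 1.59 ± 0.34 against the row median (limma, adjusted p = 0.00164 and 0.00285). miR-29a, encoded 330 bases from a miR-29b copy, changed by 1.17, which passed against MammU6 but was lost in 5 of the 8 fits that left out 1 row (0.91 to 1.45), and by 0.14, which did not pass. miR-29c, encoded 486 bases from the other copy, changed by 1.21 and 0.18 and passed against neither. The log2 ratio of miR-29b to miR-29a differed by 1.45 and that to miR-29c by 1.41, both with no overlap between the columns.

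miR-34a and miR-34c, whose genes are targets of p53, rose by smaller amounts. miR-34a lay at -3.56, -3.29, -3.21 and -3.67 cycles from the row median on differentiation day 0 and at -4.56, -4.24, -4.35 and -3.99 on growth day 5. The columns did not overlap, and miR-34a rose by 1.88 ± 0.45 against MammU6 and 0.85 ± 0.16 against the row median (limma, adjusted p = 0.00581 and 0.000706). miR-34c rose by 1.98 and 0.96, and the log2 ratio of miR-34a to miR-34c differed by -0.10 with overlapping rows. All 4 tested members of the miR-34 family were higher against MammU6 (36.9% of all tested assays) and 2 of them against the row median (9.54% of all).

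miR-21, which rises in many growing and stressed cells, rose by 1.75 ± 0.52 against MammU6 and 0.73 ± 0.26 against the row median (limma, adjusted p = 0.0148 and 0.0463). Against the row median it passed in only 2 of the 8 fits that left out 1 row, and against MammU6 it did not pass without row 2 of growth day 5 or without rows 2 or 3 of differentiation day 0. Its change over these fits ran from 0.61 to 0.88 and from 1.43 to 2.07. miR-30a rose by 1.57 and 0.54, miR-362-3p by 1.84 and 0.82, and miR-500, from the same X-linked cluster as miR-362, by 1.59 and 0.57. Each of these 3 passed against both references but lost its MammU6 call without row 2 of growth day 5, miR-30a and miR-500 also without rows 2 or 3 of differentiation day 0, with lowest changes of 1.23, 1.43 and 1.22. The row-median call was lost in 3 of these 8 fits for miR-362-3p (0.66 to 0.90), in 4 for miR-500 (0.46 to 0.69) and in none for miR-30a. Of the 6 miRNAs listed as immediate or stress-responsive, 1 was higher and 2 lower against the row median (9.54% and 14.9% of all).

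**Figure D3:**
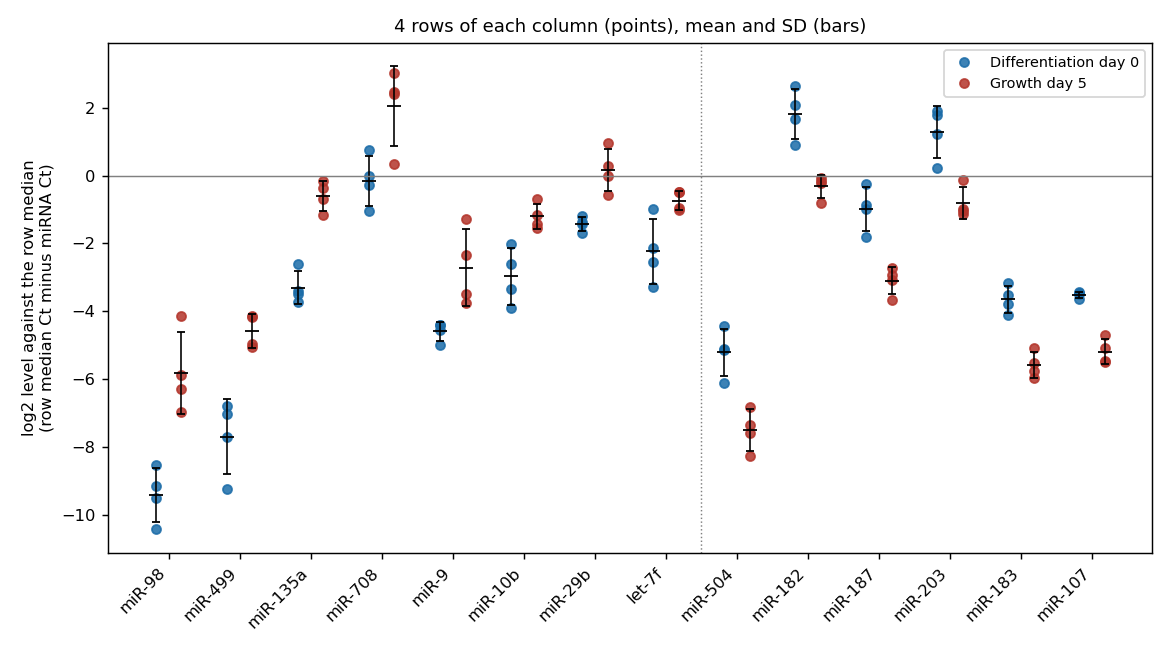
log2 level against the row median (row median Ct minus miRNA Ct, y axis) in 4 rows of differentiation day 0 (blue) and growth day 5 (red) for 8 miRNAs that rose and 6 that were lower, with mean and SD as bars. The columns do not overlap for 12 of the 14, the exceptions being miR-708, where row 1 of growth day 5 lies within the range of differentiation day 0, and let-7f, where row 4 of differentiation day 0 lies within that of growth day 5. The 14 were chosen with their changes known. Of all 241 tested assays, 26 (10.8%) had every row of growth day 5 above and 36 (14.9%) below those of differentiation day 0.

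Against MammU6 the falls were few and less steep than the leading rises. miR-182, which is reported to restrain FoxO3 in skeletal muscle, came 10.48, 10.61, 10.17 and 10.64 cycles after MammU6 on differentiation day 0 and 11.46, 11.31, 11.76 and 11.83 cycles after it on growth day 5. All 4 rows of growth day 5 were later than all 4 of differentiation day 0. It fell by 1.12 ± 0.32 against MammU6 and by 2.14 ± 0.46 against the row median (limma, adjusted p = 0.0148 and 0.00247).

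Its cluster mates had unlike values. miR-183 lay 4.11, 3.53, 3.17 and 3.77 cycles after the row median on differentiation day 0 and 5.97, 5.52, 5.75 and 5.07 cycles after it on growth day 5, and was lower by -1.93 ± 0.46 (limma, adjusted p = 0.00460). Against MammU6 its change of -0.91 did not pass (limma, adjusted p = 0.109). miR-96 changed by 1.28 against MammU6 and 0.26 against the row median and passed against neither. The log2 ratio of miR-96 to miR-182 was -12.1 to -8.60 on differentiation day 0 and -8.30 to -6.51 on growth day 5, a difference of 2.40, while that of miR-183 to miR-182 differed by 0.21 with overlapping rows. miR-96 was a late signal, with 1 row of differentiation day 0 at 22.71 cycles after MammU6 and the other 3 at 19.08 to 19.50.

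miR-203, which drives the differentiation of skin epithelium, came 11.14, 11.47, 10.90 and 10.51 cycles after MammU6 on differentiation day 0 and 12.34, 11.61, 12.51 and 11.89 cycles after it on growth day 5. The nearest rows of the 2 columns, at 11.47 and 11.61 cycles, did not overlap, and miR-203 fell by 1.08 ± 0.32 against MammU6 and by 2.11 ± 0.37 against the row median (limma, adjusted p = 0.0148 and 0.000546). miR-187 fell by 1.10 ± 0.35 and by 2.13 ± 0.44 (limma, adjusted p = 0.0198 and 0.00190). Its MammU6 call was lost without row 2 of growth day 5 and without row 3 of differentiation day 0, with a change of -1.18 and -1.03. miR-504, encoded within Fgf13 and named after its value was seen, had the lowest change against the row median, -2.30 ± 0.36, and -1.28 ± 0.51 against MammU6, which did not pass (limma, adjusted p = 0.000229 and 0.0512). It lay 5.14, 5.12, 6.12 and 4.43 cycles after the row median on differentiation day 0 and 8.28, 7.34, 7.59 and 6.81 cycles after it on growth day 5.

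Of 11 tested members of miR-17-92 and its paralogs, which are best known from dividing cells and act downstream of MYC and E2F, 1 was higher and none lower against MammU6 (36.9% and 1.24% of all tested assays). Their changes against MammU6 ran from 0.042 to 1.31, with a median of 0.40. None was higher and 6 were lower against the row median (9.54% and 14.9% of all), with a list median of -0.62, and none passed when snoRNA135, snoRNA202, U87 and Y1 were averaged as the reference. miR-17 lay at -8.44, -8.90, -9.64 and -8.86 cycles from the row median on differentiation day 0 and at -8.24, -7.76, -8.35 and -8.34 on growth day 5. Its columns did not overlap, and it was lower by -0.79 ± 0.26 against the row median and changed by 0.24 against MammU6 (limma, adjusted p = 0.0342 and 0.504). miR-92a and miR-106a were lower by -0.98 and -0.98 against the row median and changed by 0.04 and 0.05 against MammU6. The miR-106a and miR-17 assays read close together. Their mean Ct came 3.15 and 3.34 cycles after MammU6 on differentiation day 0, and 3.10 and 3.10 cycles after it on growth day 5. How far either assay also reads the other miRNA was not tested, so the 2 may not be separate members of the count. The calls of miR-17 and miR-92a were lost without row 2 of growth day 5 and without rows 2 or 3 of differentiation day 0, with changes of -0.96 to -0.56 and -1.15 to -0.76 over the 8 fits. miR-106b was the exception, with 1.31 against MammU6, which passed, and 0.29 against the row median. The MammU6 call of miR-106b was lost without rows 1 or 2 of growth day 5 and without rows 2 or 3 of differentiation day 0. The log2 ratio of miR-106b to miR-106a differed by 1.26 with no overlap.

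miR-221 and miR-222 restrain the cell cycle inhibitor p27 and are known to decline when myoblasts differentiate. miR-221 lay at -6.10, -5.79, -6.06 and -5.62 cycles from the row median on differentiation day 0 and at -5.64, -4.76, -4.97 and -4.67 on growth day 5, so that the columns overlapped narrowly, in row 4 of the first and row 1 of the second. The pair was lower by -0.88 ± 0.21 and -0.73 ± 0.20 against the row median (limma, adjusted p = 0.00359 and 0.0109), and changed by 0.14 and 0.30 against MammU6, which did not pass. The row-median call of miR-222 was lost without row 2 of growth day 5, and its change over the 8 fits ran from -0.84 to -0.58.

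In the family of miR-15 and miR-16, which brings cells to a halt in the first gap phase, 5 of 7 members were higher against MammU6 (36.9% of all tested assays) and none passed against the row median. miR-15a and miR-503 changed by 2.00 and 1.78 against MammU6 and by 0.97 and 0.75 against the row median. miR-15b and miR-16 changed by 0.50 and 0.52 against MammU6 and by -0.53 and -0.51 against the row median, and did not pass against either. In the X-linked cluster that holds miR-503, 5 of 6 were higher against MammU6 (36.9% of all), while its neighbour miR-351 was lower against the row median by -1.62 ± 0.45 (limma, adjusted p = 0.0122) and at -0.59 against MammU6, which did not pass. The rat assay for miR-351 passed against neither, with -0.85 ± 0.41 against the row median and 0.18 against MammU6 (limma, adjusted p = 0.136 and 0.663). In the mouse assay row 1 of differentiation day 0 lay apart from the other 3 rows, at -0.70 cycles from the row median against -2.71 to -2.39, and it did so in the rat assay, at -1.61 against -3.22 to -3.09. The log2 ratio of miR-503 to miR-351 ran from -1.57 to -0.65 on differentiation day 0 and from 0.25 to 1.71 on growth day 5, a difference of 2.37.

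The large imprinted Dlk1-Dio3 cluster, active in fetal muscle and in satellite cells, had 31 tested of 48 assays. Against MammU6, 6 of the 31 were higher and none lower, a smaller share than the 36.9% of all tested assays that were higher. In terms of the row median 1 was higher and 5 were lower, where 9.54% and 14.9% of all assays were. The list median was 0.63 and -0.40. miR-136 was the member higher against both, by 2.02 ± 0.45 and 0.99 ± 0.29 (limma, adjusted p = 0.00300 and 0.0165), and its call against the row median was lost without rows 2 or 3 of differentiation day 0, with changes of 0.86 to 1.13 over the 8 fits. miR-667 and miR-433 were lower against the row median by -1.48 and -1.26, with -0.46 and -0.23 against MammU6, which did not pass. The miR-433 call was lost in 4 of the 8 fits that left out 1 row, namely those without rows 2 or 4 of growth day 5 and rows 2 or 3 of differentiation day 0, with changes of -1.58 to -0.80. The rat assay for miR-758 rose by 3.01 ± 1.02 against MammU6 from rows as far apart as 20.88 and 26.74 cycles on differentiation day 0, and its change of 1.98 against the row median did not pass (limma, adjusted p = 0.0259 and 0.203). Its MammU6 call was lost in 4 of the 8 fits, without rows 1 or 2 of growth day 5 or rows 3 or 4 of differentiation day 0, with changes of 2.08 to 4.04. In the Sfmbt2 cluster, 5 of 6 were higher against MammU6 (36.9% of all) and none passed against the row median, the highest being miR-669a at 2.71 and 1.68. The MammU6 call of miR-669a was lost without row 2 of growth day 5 and without rows 2 or 4 of differentiation day 0, with changes of 1.99 to 3.45.

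**Figure D4:**
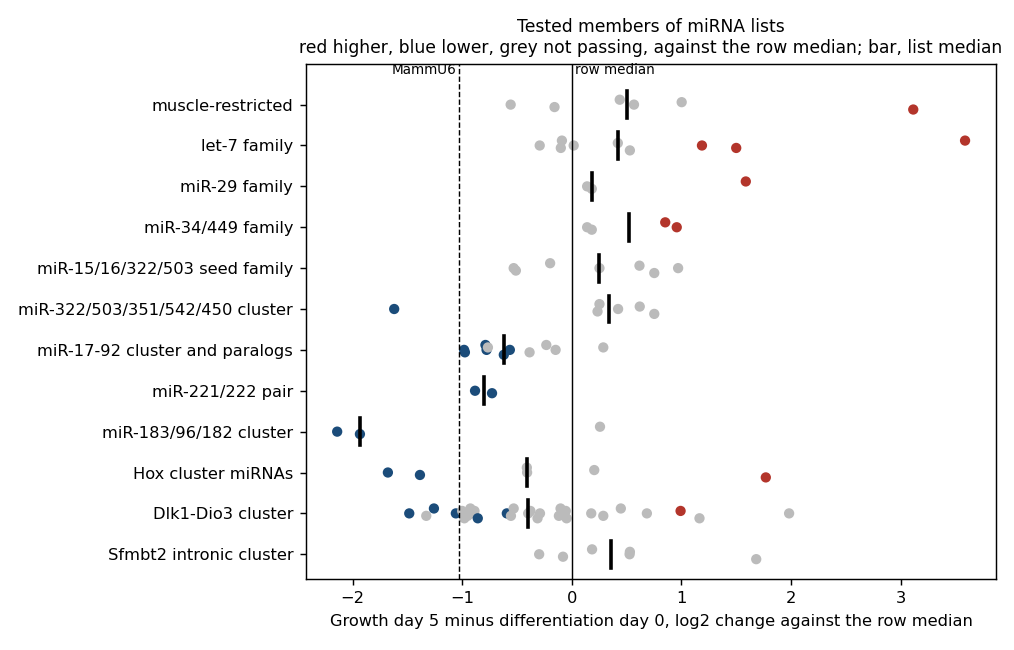
log2 change from differentiation day 0 to growth day 5 against the row median (x axis) of the tested members of 12 miRNA lists, with members that passed as higher in red, as lower in blue and the rest in grey, and the list median as a bar. The dashed line marks no change against MammU6, and the miR-17-92 members lie between the 2 lines except miR-106b at 0.29.

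Of the 12 largest rises against MammU6, the 2 not yet given are miR-330, with 3 wells on differentiation day 0, and miR-32, at 2.82 ± 0.77 and 2.45 ± 0.70 against MammU6, which passed, and 1.49 and 1.43 against the row median, which did not (limma, adjusted p = 0.0148 for both against MammU6, and 0.165 and 0.0741). The call of miR-330 was lost without row 4 of differentiation day 0, and that of miR-32 without row 2 of growth day 5 and without rows 2 or 3 of differentiation day 0, with lowest changes of 2.15 and 2.15.

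Other miRNAs that were lower against the row median include miR-146a, an NF-kB target, by -1.49 ± 0.34 and miR-132, induced through CREB, by -1.48 ± 0.35 (limma, adjusted p = 0.00318 and 0.00359), both at -0.46 against MammU6. miR-107, encoded within Pank1, and miR-685, both named after their values were seen, were lower by -1.68 ± 0.25 and -1.92 ± 0.53 in the same terms. Neither passed against MammU6. There the mean Ct of miR-107 came 15.805 cycles after MammU6 on differentiation day 0 and 16.4575 on growth day 5. That of miR-685 came 8.335 and 9.23 cycles after it. miR-107 lay at 3.44, 3.48, 3.47 and 3.64 cycles from the row median on differentiation day 0 and at 5.48, 5.47, 4.70 and 5.09 on growth day 5, the narrowest first column among the falls named here. The miR-685 call was lost without row 3 of differentiation day 0, with changes of -2.23 to -1.33 over the 8 fits.

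Markers of other cell types that a primary muscle culture can hold were read in the same rows. Of 5 fibroblast and smooth muscle miRNAs, 2 were higher against MammU6 and 1 against the row median, near the 36.9% and 9.54% of all tested assays. That 1 was miR-143, abundant in smooth muscle, which lay at -2.70, -2.46, -2.55 and -2.63 cycles from the row median on differentiation day 0 and at -4.00, -3.45, -3.53 and -3.26 on growth day 5. It rose by 2.00 ± 0.49 against MammU6 and 0.98 ± 0.24 against the row median (limma, adjusted p = 0.00581 and 0.00572), and the other 4 of that list had a change of -0.56 to 0.23 against the row median. The part of fibroblasts or smooth muscle cells in the results was not tested.

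Of the blood markers, 4 of 5 were tested, with 1 higher against MammU6 (36.9% of all) and 2 lower against the row median (14.9% of all), and myeloid miR-223 changed by -0.59 and -1.62. The miR-223 call against the row median was lost in 6 of the 8 fits that left out 1 row, with changes of -1.82 to -1.20. Of 7 epithelial markers, 3 had no Ct in either column, 3 were tested, and miR-203 alone passed, as lower. Of 5 neuronal markers, 3 were tested and miR-9 alone passed, while both others were at or below 0.22 against MammU6. Of the 2 endothelial assays, miR-126-5p was higher against MammU6, at 1.02 (36.9% of all were higher), and neither passed against the row median. The miR-126-5p call was lost in 5 of the 8 fits that left out 1 row, with changes of 0.84 to 1.28.

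A pair of assays had a Ct in all 4 rows of growth day 5 and in no row of differentiation day 0. They are miR-291a-3p, at 36.26, 35.28, 35.07 and 36.03 cycles, and miR-294, at 37.64, 34.35, 33.84 and 34.89 cycles, both from the cluster best known from mouse embryonic stem cells. With the absent wells set to 40 cycles, miR-291a-3p was at least 18.9-fold and miR-294 at least 26.4-fold higher against MammU6, and at least 9.29-fold and 13.0-fold against the row median. These limits use the mean of 4 wells, allow nothing for the spread between them, and rest on signals close to the end of the run. miR-294 also had a Ct in 2 of 4 rows of growth day 2 and in 3, 2 and 2 of 4 rows of differentiation days 1, 2 and 5. For miR-291a-3p there was a Ct in 1 row of differentiation day 1, at 34.97 cycles. Of the 12 assays on the list of pluripotent cell miRNAs, 6 had no Ct in either column and 1, miR-292-3p, could be tested. That assay had a Ct in all 4 rows of differentiation day 0 and in 3 of growth day 5. It changed by 1.40 against MammU6 and 0.63 against the row median and passed against neither. miR-293 and miR-295 each had a Ct in 2 rows of differentiation day 0, and in 2 and 4 rows of growth day 5. The list was thus not absent on differentiation day 0.

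Growth day 2, from the same course and deposited with growth day 5, divides the difference into 2 parts. The first part also crosses from the differentiation course to the growth course, with its coating, vessel, seeding density and file. It is therefore not a change over time alone. Growth day 2 shares rows with both differences, so the values stand side by side and are no support for each other. Between differentiation day 0 and growth day 2, 1 assay of 240 (0.417%) was higher and 3 (1.25%) lower against MammU6, and 2 (0.833%) were higher and 10 (4.17%) lower against the row median. Between growth day 2 and growth day 5, 47 of 242 (19.4%) were higher and 3 (1.24%) lower against MammU6, and 22 (9.09%) higher and 16 (6.61%) lower against the row median. The median change of all tested assays in these 2 parts was 0.18 and 0.75 against MammU6, and -0.11 and -0.0038 against the row median. In the second part the 4 other controls rose against MammU6 by 0.053 (U87) to 0.935 (snoRNA202), and none passed (limma, adjusted p = 0.115 to 0.907).

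For the leading miRNAs the difference divided as follows. Against the row median miR-135a differed by 0.46 between differentiation day 0 and growth day 2 and by 2.25 between growth day 2 and growth day 5. In the same 2 parts miR-708 had -0.10 and 2.30, miR-499 -0.46 and 3.58, and miR-98, with 3 wells on growth day 2, 0.74 and 2.85. miR-182 had -0.47 and -1.67. miR-203 and miR-504 had -1.65 and -2.04 in the first part, between the courses, and -0.46 and -0.27 in the second, the 3 wells of miR-504 on growth day 2 included.

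The differentiation course shares its day 0 with the comparison, and its day 5 gives a scale for the rises. Against the row median and relative to day 0, miR-499 was higher by 5.84 on differentiation day 5, where growth day 5 stood at 3.12, and the direct contrast of growth day 5 minus differentiation day 5 was -2.72 ± 0.55 (limma, adjusted p = 0.000292). miR-98 reached 3.97 there against 3.59, with a direct contrast of -0.38 ± 0.67, which did not pass (limma, adjusted p = 0.667). miR-10b reached 3.98, more than on growth day 5, with a direct contrast of -2.21 ± 0.36 (limma, adjusted p = 2.43e-05).

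Other leaders went apart between growth day 5 and differentiation day 5. These columns differ in medium and also in coating, vessel, seeding density and deposited file, which cannot be told apart. miR-135a was at -1.49 on differentiation day 5 relative to day 0 and at 2.71 on growth day 5, a direct contrast of 4.20 ± 0.24 (limma, adjusted p = 2.53e-11). miR-708 was at 0.32 against 2.21, with a direct contrast of 1.89 ± 0.43, and miR-29b at -0.65 against 1.59, with 2.24 ± 0.35 (limma, adjusted p = 0.000924 and 1.49e-05). miR-504 was at 2.21 on differentiation day 5 and at -2.30 on growth day 5, a direct contrast of -4.51 ± 0.37 (limma, adjusted p = 5.27e-09). The muscle miRNAs miR-1 and miR-133a were lower on growth day 5 than on differentiation day 5 by -3.60 ± 0.38 and -2.88 ± 0.31 (limma, adjusted p = 1.50e-07 and 2.00e-07), and the same 2 contrasts were -3.81 and -3.09 against MammU6. Each direct contrast given here except that of miR-98 also passed against MammU6 in the same direction.

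**Figure D5:**
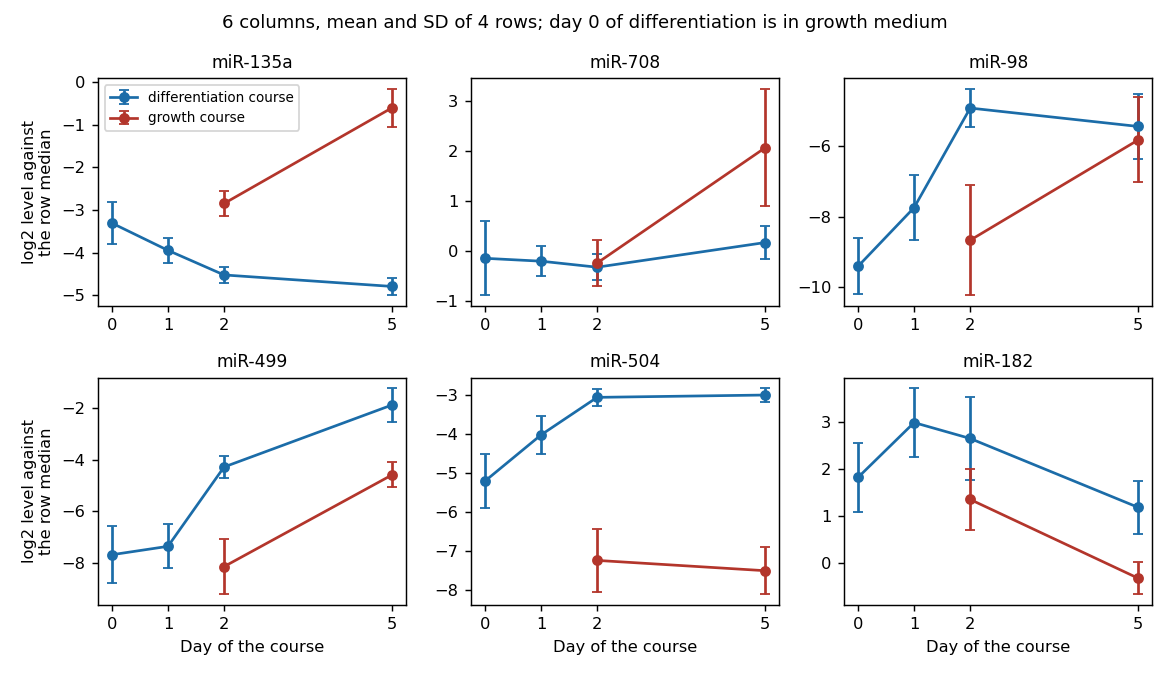
Mean log2 level against the row median with SD over the rows (y axis) for 6 miRNAs over the days of the differentiation course (blue) and the growth course (red), where day 0 of the differentiation course was still in growth medium. Relative to differentiation day 0, miR-135a is higher on growth day 5 and lower on differentiation day 5, and miR-504 the reverse. The lower level of miR-504 is largely present by growth day 2 and differs little between the 2 growth days. miR-98 and miR-499 are higher on day 5 of both courses than on differentiation day 0.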

How the data were processed

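Mature miRNAs were measured by TaqMan PCR on an Applied Biosystems 7900HT with 40 cycles, per the labels. The values the authors deposited are raw Ct, not normalized, per the file headers, and undetermined wells are marked as such. Software, threshold and baseline settings are not given in the sources used here. Samples are pairs of days, and 8 repeated day columns were identical to the column they repeat, so each of 6 columns was used once with its 4 rows. The authors' fold values between pairs of days were not used, since none joins these 2 columns. RNA integrity numbers were above 9, per the labels' protocols.

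The log2 level was the MammU6 Ct, or the row median Ct, minus the miRNA Ct of the same row, with undetermined wells left out and 100% PCR efficiency assumed. All 24 rows entered 1 limma fit (lmFit and eBayes, limma 3.58.1, R 4.3.3), contrast growth day 5 minus differentiation day 0. An assay was tested with a Ct in at least 3 of 4 wells of both columns and a mean Ct under 35 in at least 1. Tests are two-sided, with Benjamini-Hochberg adjustment over all miRNA assays tested, at 0.05. The single reference measures were tested by exact permutation of the 8 rows (70 splits). The fit was tested on simulated data with noise drawn separately for each assay. That simulation did not cover an error of the reference shared by all assays of a row. The number of rows limits the precision. Ct of different assays were not compared as amounts, since their efficiencies are not given.

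The members, the miRNA lists and the tests were chosen with earlier results of these data known. Named miRNAs are the 12 largest rises and 12 largest falls against MammU6 that passed, 6 each way that passed against both references, tested members of the muscle, miR-17-92, miR-15/16, miR-183 and miR-221 lists, the most changed members (at most 4) of the remaining lists, and assays with a Ct in only 1 column. The text prints part of these and gives the rest by counts and range. Fewer than 12 fell, so all 3 are named. miR-136, miR-10a, let-7d, miR-504, miR-107, miR-685 and the rat assays for miR-351 and miR-1 were named after their values were seen. The rat assay for miR-1 is not part of the counts of named miRNAs. Of 24 names looked up in the RefSeq table, 23 were matched to a mature sequence and the sequence of 1 is not shown. Alternatives were other reference RNAs, filters, fits, thresholds and each row left out. Ratios of 16 pairs, picked after the values were seen, were compared by the same exact permutation test, adjusted over the 16. Python 3.11.15, pandas 2.3.3 and matplotlib 3.10.9 were used.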

Additional observations from a re-analysis of the deposited data

Results flagged for a closer look

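Within the 4 rows of a column, 15 of the 230 groups examined (4 rows of 1 named miRNA in 1 column against 1 reference) held a row whose gap to the nearest other row exceeded Dixon's critical value for 4 values. Chance would flag about 1 in 20 independent groups. These groups share wells and reference values, so the number flagged cannot be judged against that rate. Relative to MammU6, row 3 of differentiation day 0 stood apart for miR-10b (16.72 cycles against 14.72 to 14.91 in the other rows). Row 2 of differentiation day 0 stood apart for miR-96 (22.71 against 19.08 to 19.50) and row 1 for miR-221 (5.27 against 6.69 to 6.91) and miR-32 (17.23 against 19.73 to 20.17). Row 4 of growth day 5 stood apart for miR-32 (18.59 against 16.03 to 16.31). Row 2 of growth day 5, which has the late MammU6, stood apart for miR-30a (5.34 against 6.57 to 6.80), miR-500 (9.74 against 11.06 to 11.31) and let-7d (6.59 against 7.57 to 7.70). Relative to the row median, row 2 of growth day 5 stood apart for miR-667 (3.06 against 1.09 to 1.34) and the rat assay for miR-758 (11.22 against 9.11 to 9.22), and row 4 for miR-203 (0.12 against 0.97 to 1.12). Row 1 of differentiation day 0 stood apart for miR-351 (-0.70 against -2.71 to -2.39), its rat assay (-1.61 against -3.22 to -3.09) and miR-32 (5.86 against 7.18 to 7.42), and row 3 for miR-15b (-4.30 against -3.89 to -3.81). Of the 15, 5 lie in row 2 of growth day 5, whose part in these values was not tested.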

How the results depend on the processing

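No paired analysis of growth day 5 against differentiation day 0 was possible because the rows carry no replicate numbers in the labels and the columns come from separate files. Rows at the same position of a course were correlated, at 0.649 against MammU6 and 0.427 against the row median. Contrasts between days of the same course, such as growth day 5 minus growth day 2, come from the fit without this correlation. With row position within each course as a random block, 90 were higher and 2 lower against MammU6 (89 and 3 without it), the call of miR-187 being lost at -1.10. The same block against the row median, an alternative chosen after seeing the data, gave 18 higher and 40 lower (23 and 36 without it). The number of miRNAs changed against MammU6 (92) was 59 against the row median, 42 against snoRNA135, 32 against snoRNA202, 16 against U87, 26 against Y1 and 44 with the 4 other controls averaged. It was 4 in a test per assay without shared variance and 21 at an adjusted p under 0.01. Leaving out 1 row gave 26 to 135. With the late MammU6 row of each column left out, chosen after seeing the data, it was 76. The other settings gave 84 to 130 (filters on Ct and wells, undetermined wells at 40, the day mean of MammU6, a variance trend, the 8 rows alone, a 2-fold limit, an adjusted p under 0.1). The count against the row median (59) was 39 in a fit of the 8 rows alone, and 36 to 63 with 1 row left out. The cause of these differences was not tested.

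Of 89 higher and 3 lower assays against MammU6, 21 and 2 kept their call in all 8 fits that left out 1 row, and against the row median 14 of 23 and 18 of 36 did. miR-135a and miR-182 passed in the same direction under all 25 alternatives run for single miRNAs. Of the 32 named miRNAs that passed against MammU6, 31 kept their sign, the exception being miR-126-5p at -0.0025 against the row median.

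Signs also turned for these miRNAs, none of which passed against MammU6, with values in the order row median, snoRNA135, snoRNA202, U87, Y1 and mean of the 4 other controls. miR-133a had -0.56, -0.47, -0.36, -0.44, -0.33 and -0.40. miR-92a had -0.98, -0.90, -0.79, -0.86, -0.75 and -0.82. miR-106a had -0.98, -0.89, -0.78, -0.86, -0.75 and -0.82. miR-17 had -0.79, -0.70, -0.59, -0.67, -0.56 and -0.63. miR-15b had -0.53, -0.44, -0.33, -0.41, -0.30 and -0.37. miR-16 had -0.51, -0.42, -0.31, -0.39, -0.28 and -0.35. miR-221 had -0.88, -0.80, -0.69, -0.76, -0.65 and -0.72. miR-222 had -0.73, -0.64, -0.53, -0.61, -0.50 and -0.57. let-7d had -0.29, -0.21, -0.10, -0.17, -0.063 and -0.13. The rat assay for miR-351 had -0.85, -0.76, -0.65, -0.73, -0.62 and -0.69. miR-133b had -0.16, -0.07 and -0.038 against the row median, snoRNA135 and U87. With 1 row left out miR-92a ran from -0.14 to 0.19, miR-106a from -0.11 to 0.22, miR-221 from -0.062 to 0.52 and rat miR-351 from -0.13 to 0.49. Without the late MammU6 rows miR-433 was at 0.19 and rat miR-351 at -0.21. The late assays for miR-98, miR-499 and rat miR-758 had an SE of 0.85, 0.75 and 1.02 against MammU6, where the median over all tested assays was 0.45.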
